A study of Mus musculus with 14 samples.

Results

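The genes described here are 38 synaptic genes of vesicles, adhesion, scaffolds and glutamate receptors, matched by symbol. They were chosen with earlier results of these data known. The 20 presynaptic genes are 6 of synaptic vesicle proteins, 7 of SNAREs, calcium sensors and complexins, 3 of the active zone, 2 vesicular glutamate transporters and 2 neurexins. The 18 postsynaptic genes are 3 neuroligins, 6 scaffolds, 2 subunits of the kinase CaMKII, 4 AMPA and 3 NMDA receptor subunits. All 38 were found among the 56941 genes of the deposited tables, and all 38 passed the filter on low counts in every comparison. They were measured by polyadenylated RNA sequencing of mouse embryonic forebrain in 4 groups. At E18.5 (embryonic day 18.5) there were 4 double conditional knockout (dcKO) and 4 ff libraries of cerebral cortex, and at E12.5 there were 3 dcKO and 3 ff libraries of telencephalon. In dcKO, the floxed alleles of Sbno1 and Trp53 are carried together with Emx1-Cre, a driver that acts in progenitors of the dorsal telencephalon and so in the excitatory neurons and glia they produce, but not in neurons that migrate in from the ventral telencephalon. The ff libraries, written dfl in the tables, were taken to carry the floxed alleles without the driver. No group had the driver alone or only 1 of the deletions, so the effects of the driver and of each deletion cannot be told apart. Libraries are called here by the number in their column name.

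A chemical synapse passes a signal from vesicles that fuse with the presynaptic membrane to receptors held in a scaffold on the postsynaptic side. Vesicles are loaded with glutamate by vesicular transporters, docked at the active zone and fused by SNARE proteins under the control of calcium-sensing synaptotagmins and of complexins, while neurexins and neuroligins join both membranes. Most of these genes are expressed in young cortical neurons before synapses are numerous, and their transcripts become more abundant as neurons mature.

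Emx1, the gene after which the driver is named, had fewer counts in every dcKO library than in any ff library of its stage, at 14.2 to 16.3 CPM (counts per 1e+06, scaled by TMM factors within a stage) in dcKO and 25.2 to 28.2 CPM in ff at E18.5. The targeted gene Sbno1 was at 65.4 to 76.6 CPM in dcKO and 95.2 to 113 CPM in ff at E12.5, but at E18.5 at 67 to 76.7 CPM in dcKO and 71.9 to 74.7 CPM in ff, so its whole-gene count did not mark the E18.5 libraries labelled dcKO. In TPM, Sbno1 at E18.5 reached 26.2 in dcKO and ran from 14.7 to 18.4 in ff, with every dcKO library above every ff library. Trp53 was at 58.4 to 72.7 CPM in dcKO and 72 to 77.5 CPM in ff at E18.5. In 11 of 14 samples the description names a library of another group than the title, and groups here follow the column names and titles. Total expected counts were 5.98 M in E18.5 dcKO No2 and 4.92 M in E12.5 ff No9, and 42 to 82 M in the other 12 libraries, in units of 1e+06 (M). All dcKO libraries were male by Xist and chromosome Y transcripts, and 2 of 4 ff libraries at E18.5 and 1 of 3 at E12.5 were female. Ttr, a marker of choroid plexus, stood at 1.82 TPM in dcKO No12 and between 1400 and 3200 TPM in the remaining 7 libraries of that stage (E18.5).

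In E18.5 cortex labelled dcKO, most of the synaptic genes were lower than in ff, and all 7 genes of the vesicle fusion machinery fell. Of the 38 genes, 25 fell and 2 rose in dcKO (edgeR quasi-likelihood F test with Benjamini-Hochberg adjustment over 17974 genes, adjusted p below 0.05). Among all genes tested, 32.2% were called at E18.5, 15.6% higher and 16.6% lower. The 38 were chosen with earlier results of these data known, so these shares are no test of the set. The median log2 fold change was -0.26 over the 38 genes and 0.03 over all genes tested. Of the presynaptic genes 15 of 20 fell and 1 rose, with a median of -0.28, and of the postsynaptic genes 10 of 18 fell and 1 rose, with a median of -0.17. The 4 largest decreases were those of Syt4, Nlgn1, Camk2b and Sv2b, and the increases were those of Nrxn3 and Gria1. In the authors' deposited table, with adjusted p below 0.05, 28 of the 38 were lower and 2 higher in dcKO at E18.5. The calls over all genes in that table were not counted. The DESeq2 fit made here called 3329 of 17974 genes lower and 2834 higher.

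**Figure D1:**
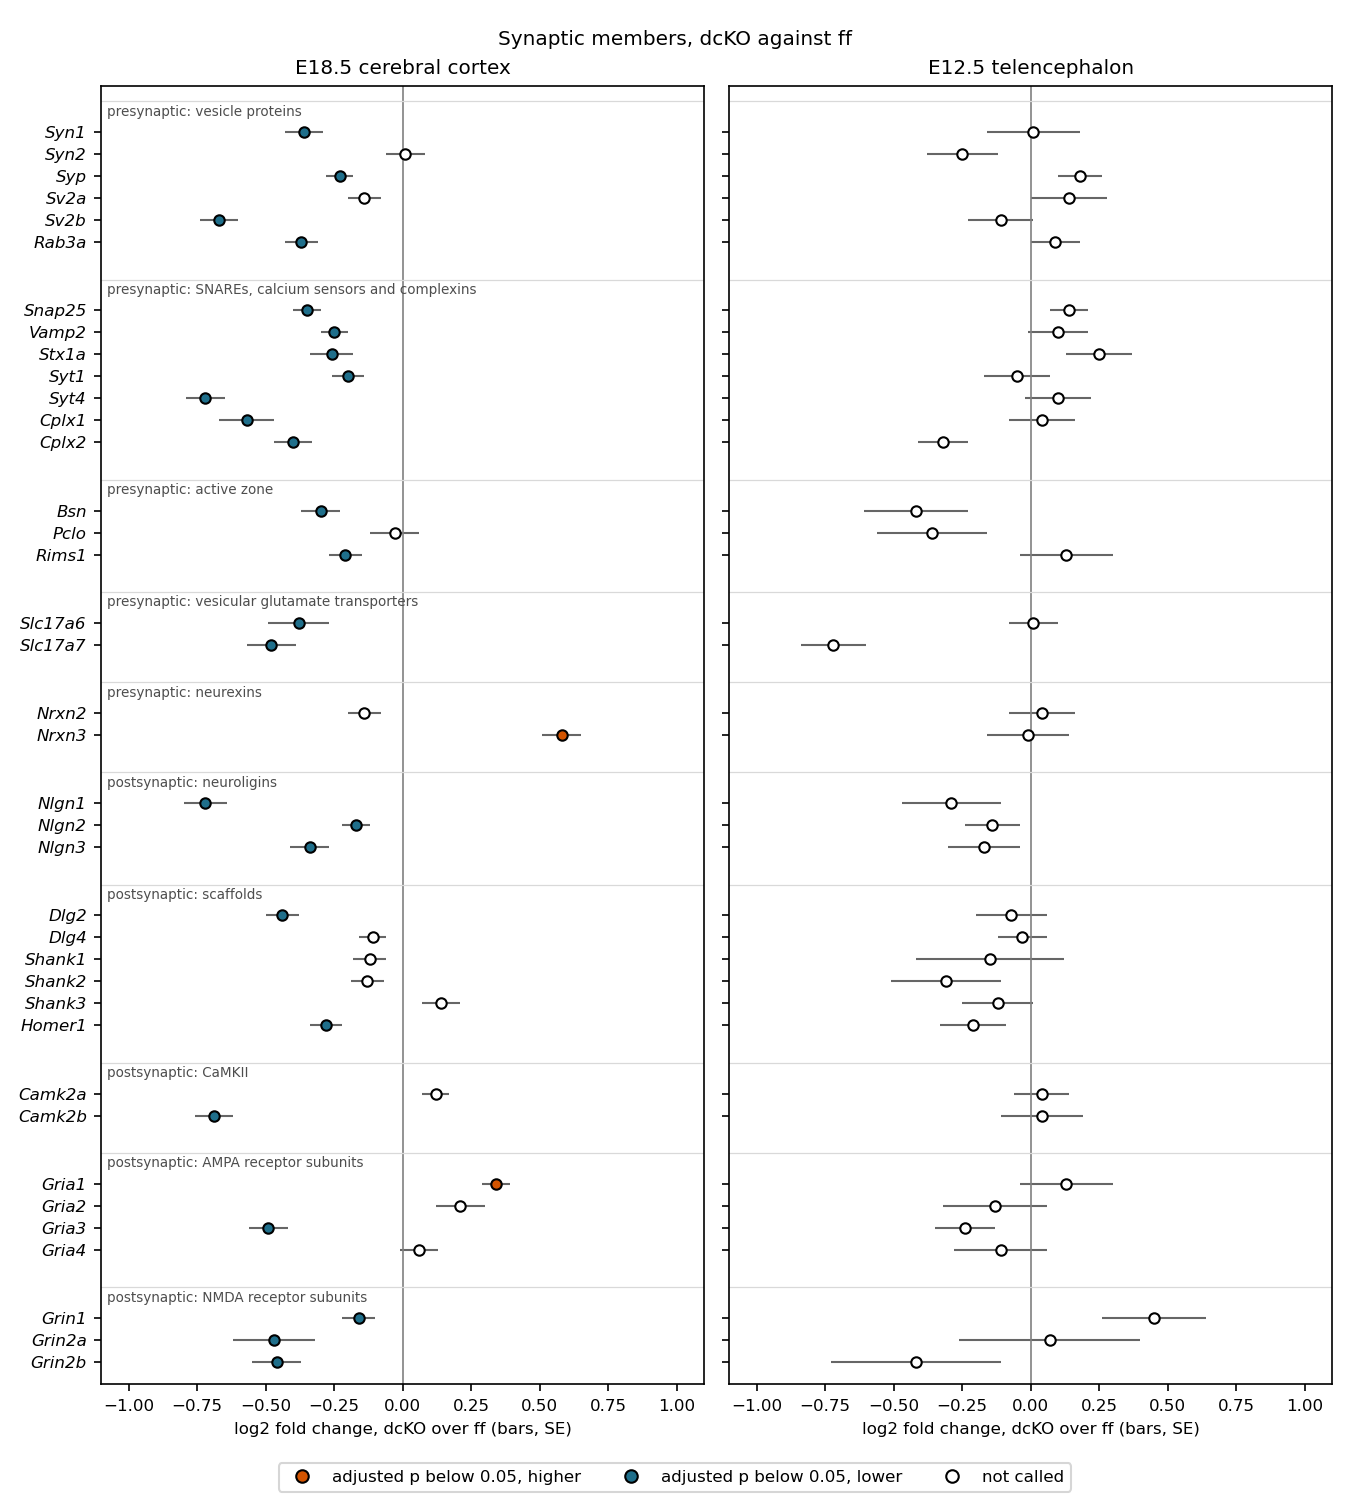
Log2 fold change of dcKO over ff for the 38 synaptic genes, ordered by role, at E18.5 (left) and E12.5 (right). Points are edgeR estimates and bars the standard error, and filled points passed an adjusted p of 0.05. At E18.5, 25 genes lie below zero and 2 above among the filled points, and at E12.5 no point is filled.

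Among the vesicle proteins 4 of 6 fell in dcKO at E18.5, with a median log2 fold change of -0.30. Sv2b, a vesicle glycoprotein of the SV2 family, was at 33, 37.2, 40.8 and 37.6 CPM in dcKO, against 62.3, 62.3, 61.5 and 52.8 CPM in ff. Every dcKO library was below every ff library, and the decrease passed the test (log2 fold change -0.67, SE 0.07, adjusted p = 4e-05 by edgeR, Benjamini-Hochberg adjusted). Rab3a, the GTPase of synaptic vesicles and the most abundant of the 38 transcripts by TPM in all 4 groups, averaged 217 ± 14.1 CPM in dcKO and 282 ± 19.1 CPM in ff (SD, n = 4 each). Syn1, a synapsin that tethers vesicles into the reserve pool, averaged 133 ± 9.85 CPM in dcKO and 171 ± 12.5 CPM in ff (SD, n = 4 each). Syp, the vesicle membrane protein synaptophysin, averaged 249 ± 9.04 CPM in dcKO and 291 ± 13.6 CPM in ff (SD, n = 4 each). Rab3a, Syn1 and Syp all fell, by 0.37, 0.36 and 0.23 on the log2 scale, and without overlap between the groups. The other 2 did not pass the test: the second synapsin, Syn2, averaged 103 ± 6.56 CPM in dcKO and 103 ± 8.28 CPM in ff, and Sv2a averaged 188 ± 14.2 CPM in dcKO and 208 ± 8.5 CPM in ff (SD, n = 4 each). Since these are bulk samples, fewer neurons and less of a transcript per neuron cannot be told apart, here or in any result that follows.

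All 7 genes of the fusion machinery fell in dcKO at E18.5, with a median log2 fold change of -0.35 and a range of -0.72 to -0.20. Syt4, a synaptotagmin that differs from Syt1 in lacking strong calcium-dependent membrane binding, was at 286, 269, 317 and 272 CPM in dcKO, against 511, 482, 470 and 422 CPM in ff. The highest dcKO library lay well below the lowest ff library (log2 fold change -0.72, SE 0.07, adjusted p = 1.6e-05 by edgeR, Benjamini-Hochberg adjusted). Cplx1, a complexin that binds assembled SNAREs, was at 72.8, 97, 94.8 and 97.7 CPM in dcKO, against 143, 122, 153 and 128 CPM in ff. The groups did not overlap (log2 fold change -0.57, SE 0.10, adjusted p = 0.0012 by edgeR, Benjamini-Hochberg adjusted), and the lowest value was that of the shallow library No2. Snap25, the SNARE of the plasma membrane with a pair of coiled-coil motifs, was at 167, 167, 184 and 171 CPM in dcKO, against 228, 206, 226 and 214 CPM in ff. It fell by 0.35 on the log2 scale without overlap. Cplx2 averaged 301 ± 20.1 CPM in dcKO and 398 ± 28.8 CPM in ff, and Vamp2, the vesicle SNARE, averaged 348 ± 16.5 CPM in dcKO and 415 ± 12.8 CPM in ff (SD, n = 4 each). Neither overlapped between the groups. Stx1a, the syntaxin partner of Snap25, averaged 88.4 ± 8.71 CPM in dcKO and 107 ± 9.98 CPM in ff, and Syt1, the fast calcium sensor of release, averaged 258 ± 15.7 CPM in dcKO and 297 ± 14.6 CPM in ff (SD, n = 4 each). Syt1 was the smallest decrease of the group, and its lowest ff library (275 CPM) lay below its highest dcKO library (278 CPM).

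Of the active zone genes, 2 of 3 fell in dcKO at E18.5. Bsn, which encodes the large scaffold bassoon, was at 90.4, 102, 109 and 105 CPM in dcKO, against 118, 142, 120 and 121 CPM in ff, with no overlap (log2 fold change -0.30, SE 0.07, adjusted p = 0.0069 by edgeR, Benjamini-Hochberg adjusted). Rims1, a Rab3 effector that primes vesicles, averaged 50.8 ± 3.58 CPM in dcKO and 58.9 ± 3.54 CPM in ff, and fell by 0.21 on the log2 scale. Pclo, the bassoon relative piccolo, averaged 82.5 ± 8.66 CPM in dcKO and 84.2 ± 9.87 CPM in ff (SD, n = 4 each) and did not pass the test (adjusted p = 0.85 in edgeR). Both vesicular glutamate transporters fell. Slc17a7, which encodes VGLUT1 of mature cortical terminals, was at 47.4, 65.2, 59.3 and 66.6 CPM in dcKO, against 89.9, 86.4, 81.9 and 79.1 CPM in ff. The dcKO libraries all lay below the ff libraries (log2 fold change -0.48, SE 0.09, adjusted p = 0.0015 by edgeR, Benjamini-Hochberg adjusted). Slc17a6, which encodes VGLUT2, averaged 37.3 ± 5.25 CPM in dcKO and 48.4 ± 5.65 CPM in ff (SD, n = 4 each) and fell by 0.38 on the log2 scale, with overlapping groups.

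The neurexins are presynaptic adhesion proteins. Nrxn3 was at 115, 116, 119 and 99 CPM in dcKO, against 71.4, 83, 73 and 71.8 CPM in ff. It was the only presynaptic gene that rose in dcKO at E18.5 (log2 fold change 0.58, SE 0.07, adjusted p = 5.8e-05 by edgeR, Benjamini-Hochberg adjusted), with no overlap. Nrxn2 averaged 364 ± 19.3 CPM in dcKO and 401 ± 17.4 CPM in ff (SD, n = 4 each), and it did not pass the test (adjusted p = 0.07 in edgeR).

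**Figure D2:**
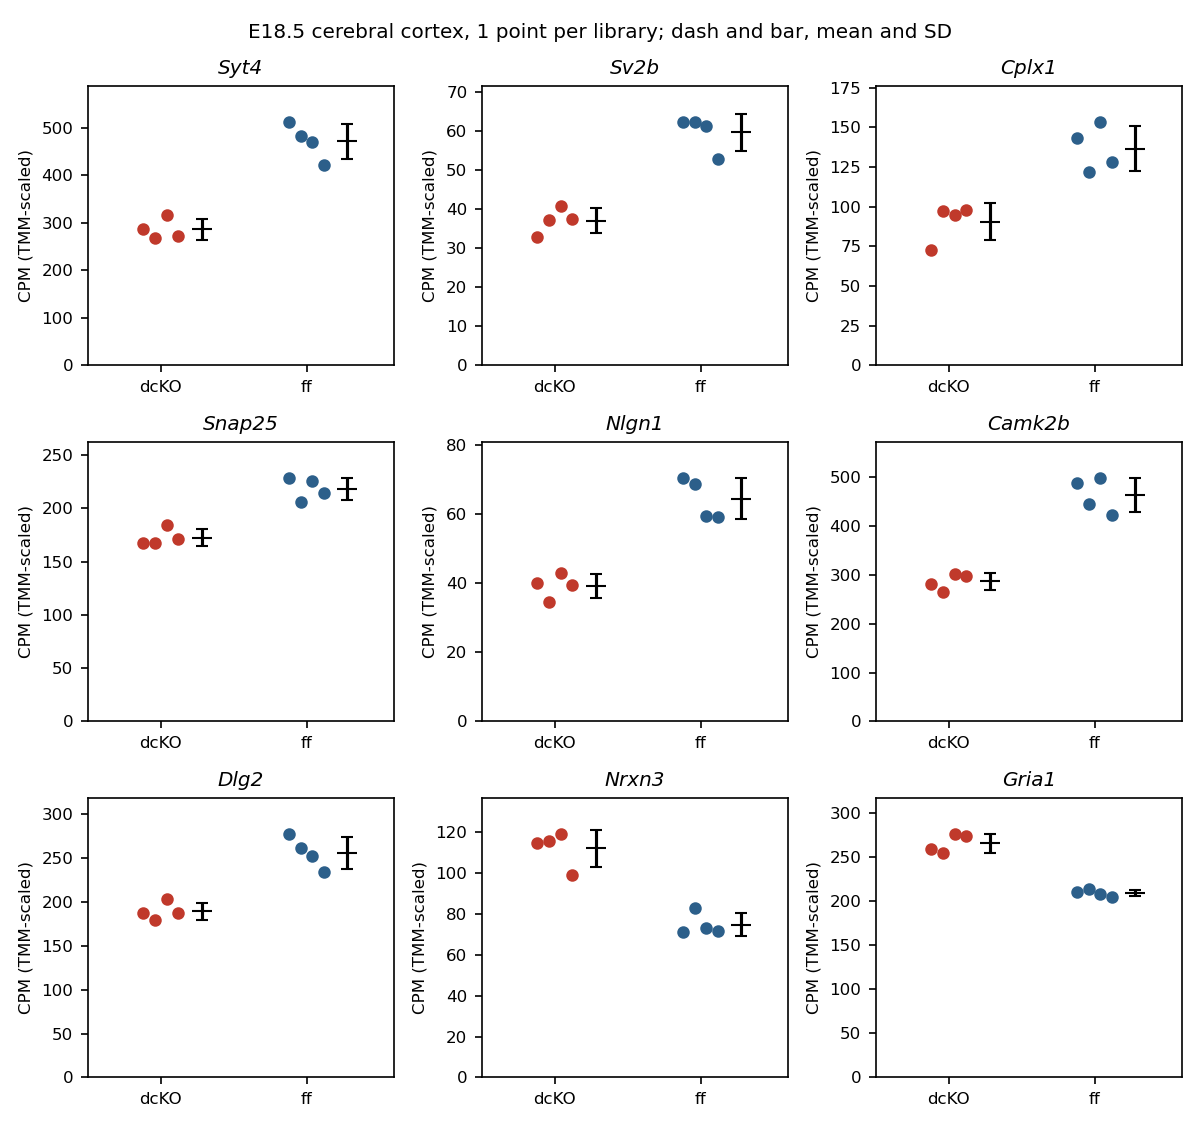
CPM in each E18.5 library for 9 synaptic genes, with dcKO left and ff right, 1 point per library and the mean and SD beside them. In 7 genes every dcKO point lies below every ff point, and in Nrxn3 and Gria1 every dcKO point lies above every ff point.

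On the postsynaptic side all 3 neuroligins fell in dcKO at E18.5, with a median log2 fold change of -0.34. Nlgn1, the neuroligin of excitatory synapses, was at 40, 34.7, 43.1 and 39.4 CPM in dcKO, against 70.4, 68.9, 59.6 and 59.3 CPM in ff. No dcKO library reached the lowest ff library (log2 fold change -0.72, SE 0.08, adjusted p = 4.5e-05 by edgeR, Benjamini-Hochberg adjusted). Nlgn3 averaged 92.1 ± 6.91 CPM in dcKO and 116 ± 9.47 CPM in ff, and Nlgn2, the neuroligin of inhibitory synapses, averaged 269 ± 12.5 CPM in dcKO and 302 ± 11 CPM in ff (SD, n = 4 each). Nlgn2 changed least of the 3, by -0.17 on the log2 scale.

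Of the scaffold genes 2 of 6 fell. Dlg2, which encodes the membrane-associated guanylate kinase PSD-93, was at 187, 179, 203 and 188 CPM in dcKO, against 277, 261, 252 and 234 CPM in ff. The groups were apart (log2 fold change -0.44, SE 0.06, adjusted p = 0.00025 by edgeR, Benjamini-Hochberg adjusted). Homer1, which links metabotropic receptors to the scaffold, averaged 75.8 ± 4.71 CPM in dcKO and 91.9 ± 5.3 CPM in ff (SD, n = 4 each) and fell by 0.28 on the log2 scale. Dlg4, which encodes PSD-95, averaged 339 ± 12.8 CPM in dcKO and 365 ± 11.9 CPM in ff, and did not pass the test (log2 fold change -0.11, adjusted p = 0.11 in edgeR, n = 4 each). The 3 Shank genes, whose products lie beneath the PSD-95 layer, did not pass either. Shank1 averaged 211 ± 11.6 CPM in dcKO and 230 ± 14.6 CPM in ff. Shank2 averaged 85.2 ± 4.85 CPM in dcKO and 93.3 ± 5.68 CPM in ff. Shank3 averaged 76.4 ± 4.95 CPM in dcKO and 69.3 ± 5.48 CPM in ff (SD, n = 4 each).

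Of the subunits of CaMKII, the kinase of the postsynaptic density, 1 of 2 fell. Camk2b was at 281, 266, 303 and 299 CPM in dcKO, against 489, 445, 498 and 424 CPM in ff. It had the lowest p of the 38 genes, and the groups were far apart (log2 fold change -0.69, SE 0.07, adjusted p = 1.4e-05 by edgeR, Benjamini-Hochberg adjusted). Camk2a, the subunit that dominates in the adult forebrain, was at 99.7, 94.8, 107 and 108 CPM in dcKO, against 98.8, 93.1, 92.8 and 91.9 CPM in ff, and did not pass the test (log2 fold change 0.12, adjusted p = 0.096 in edgeR).

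Of the AMPA receptor subunits 1 of 4 fell and 1 rose. Gria3 was at 46.6, 41, 49.1 and 44.4 CPM in dcKO, against 62.7, 69.1, 60.1 and 61 CPM in ff, and fell (log2 fold change -0.49, SE 0.07, adjusted p = 0.00022 by edgeR, Benjamini-Hochberg adjusted). Gria1 was at 259, 255, 276 and 274 CPM in dcKO, against 211, 214, 208 and 205 CPM in ff, and rose (log2 fold change 0.34, SE 0.05, adjusted p = 0.00024 by edgeR, Benjamini-Hochberg adjusted). Neither overlapped between the groups. Gria1 stands outside the rule for named genes and is given in full because it was 1 of only 2 members that rose. Gria2, the subunit that keeps most AMPA receptors impermeable to calcium, averaged 355 ± 31.5 CPM in dcKO and 305 ± 35.8 CPM in ff, and Gria4 averaged 64.5 ± 5.39 CPM in dcKO and 61.6 ± 4.12 CPM in ff (SD, n = 4 each). Neither passed the test (adjusted p = 0.08 and 0.54 in edgeR).

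All 3 NMDA receptor subunits fell in dcKO at E18.5. Grin2b, the regulatory subunit that prevails before birth, was at 168, 196, 209 and 169 CPM in dcKO, against 244, 300, 252 and 229 CPM in ff, without overlap (log2 fold change -0.46, SE 0.09, adjusted p = 0.003 by edgeR, Benjamini-Hochberg adjusted). Grin1, the obligatory subunit, averaged 80.9 ± 5.75 CPM in dcKO and 90.8 ± 4.49 CPM in ff (SD, n = 4 each) and was the weakest call of all, at an adjusted p of 0.048 in edgeR. Grin2a, the subunit of maturing synapses, averaged 5.12 ± 0.984 CPM in dcKO and 7 ± 0.806 CPM in ff (SD, n = 4 each), resting on 36 to 339 expected counts per dcKO library and 322 to 585.8 per ff library.

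Of the 25 decreases, 20 passed in every fit that left out 1 library, and the exceptions, Stx1a, Rims1, Nlgn2, Grin1 and Grin2a, were lost in at least 1 such fit. Without the shallow library No2 and without No12, the library low in Ttr, 25 genes fell and 2 rose in each case. Grin1 lost its call in both of these fits, so the 25 were not the same genes as in the main fit. Without No3 there were 4 that rose (Camk2a, Gria1, Gria2 and Nrxn3). Over all genes 2906 fell and 2817 rose without No2, 2694 fell and 2385 rose without No12, and 2820 fell and 2539 rose without No3. The deposited TPM set a different zero: on log2(TPM + 1) the median over all genes was 0.12 higher in dcKO, 76.7% of all calls were higher against 48.5% in counts, 13 members were called lower and 5 higher, with Camk2a, Gria2 and Shank3 joining Nrxn3 and Gria1. After TMM factors computed on the TPM removed that shift, 24 members were lower and 2 higher, and over all genes 2693 were lower and 1960 higher. With the sex of the library as a covariate 19 members were lower and 2 higher, and over all 17974 genes 2462 were lower and 2317 higher. The main fit had 2978 lower and 2801 higher.

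Markers of cell classes also differed between the genotypes at E18.5, some lists being lower in dcKO and others higher. Of 12 pan-neuronal markers such as Tubb3 and Map2, 10 fell and none rose, with a median log2 fold change of -0.32 and a summed level of 5520 to 6170 TPM in dcKO and 7720 to 7980 TPM in ff. Of 12 markers of cortical projection neurons, 9 fell and 2 rose, with 950 to 1060 TPM in dcKO and 1390 to 1560 TPM in ff. Of 10 markers of GABAergic neurons and the ventral telencephalon all 10 rose, with 1250 to 1380 TPM in dcKO and 734 to 843 TPM in ff. Of 12 radial glia markers 9 rose, with 2420 to 2690 TPM in dcKO and 2210 to 2330 TPM in ff. Of 10 proliferation markers 9 rose, with 525 to 538 TPM in dcKO and 344 to 411 TPM in ff. Other lists without overlap at E18.5 were the markers of intermediate progenitors (5 of 6 rose and 1 fell), at 162 to 190 TPM in dcKO and 111 to 138 TPM in ff, and of microglia (4 of 6 rose), at 128 to 153 TPM in dcKO and 82.6 to 104 TPM in ff. Markers of Cajal-Retzius neurons (3 of 5 rose) were at 136 to 173 TPM in dcKO and 103 to 129 TPM in ff. Those of thalamus and diencephalon (3 of 6 tested rose) were at 22.4 to 24.7 TPM in dcKO and 13.7 to 17.9 TPM in ff. Those of astrocytes (2 of 5 rose) were at 286 to 361 TPM in dcKO and 248 to 280 TPM in ff. In counts the astrocyte markers had a median log2 fold change of 0, with 2 above zero and 3 below. The summed levels of all these lists are in TPM, in which 23.1% of all genes lay wholly above ff in dcKO at E18.5 and 7.56% wholly below. Erythroid markers were at 594 to 2760 TPM in dcKO and 3650 to 6190 TPM in ff, with a median log2 fold change of -1.44 and none of 5 tested called. No gene of these lists was at 0 in all libraries, and their part in the synaptic decreases was not tested. Set against the mean log2(TPM + 1) of the pan-neuronal markers in the same library, the presynaptic mean lay -1.9 to -1.75 away in dcKO and -1.91 to -1.83 away in ff, which overlap. The postsynaptic mean lay -2.69 to -2.57 away in dcKO and -2.83 to -2.69 away in ff, so the groups touched at -2.69 with dcKO otherwise above ff.

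**Figure D3:**
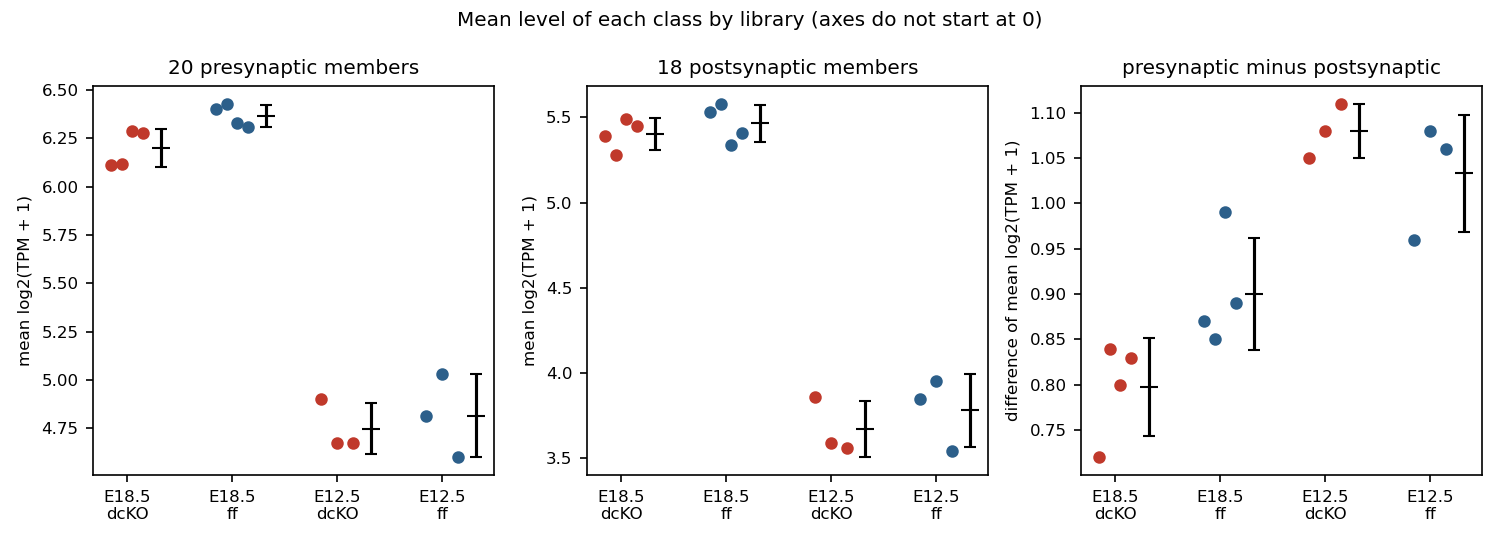
Mean log2(TPM + 1) of the 20 presynaptic (left) and 18 postsynaptic genes (middle) in each library, and their difference (right), with the mean and SD beside the points. At E18.5 the difference was 0.72 to 0.84 in dcKO and 0.85 to 0.99 in ff.

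Presynaptic and postsynaptic genes were compared within each library. At E18.5 the presynaptic mean exceeded the postsynaptic mean by 0.72, 0.84, 0.8 and 0.83 on the log2(TPM + 1) scale in dcKO, against 0.87, 0.85, 0.99 and 0.89 in ff. The dcKO libraries all lay below the ff libraries, but closely: the gap between them was smaller than the spread within either group, and on log2(TPM + 0.1) the groups met at 0.9. On log2 CPM the same differences ran over 0.15 to 0.33 in dcKO and 0.3 to 0.41 in ff, and they overlapped. At E12.5 the difference was 1.05 to 1.11 in dcKO and 0.96 to 1.08 in ff on the log2(TPM + 1) scale. In CPM at E18.5, 13 of 20 presynaptic genes lay wholly below ff in dcKO and 1 wholly above, and 9 of 18 postsynaptic genes lay below and 1 above. Over all 17974 genes tested, 17.2% lay wholly below ff in dcKO and 16.1% wholly above, beside the 16.6% called lower and 15.6% called higher. In TPM at E18.5, 9 presynaptic genes lay wholly below ff in dcKO, 1 above and 10 overlapped, and 5 postsynaptic genes lay below, 4 above and 9 overlapped. In TPM 7.56% of all genes lay below and 23.1% above. No test was made of the difference between the classes.

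Further synaptic genes outside the 38 were counted in the same way. Of 40 further presynaptic genes, 39 were tested at E18.5, of which 16 fell and 4 rose, with a median log2 fold change of -0.13. Of 42 further postsynaptic genes 13 fell and 8 rose, also with a median of -0.13. Syt7, a slow calcium sensor, and Syngr1, a vesicle protein, fell by 0.41 and 0.36 on the log2 scale. The presynaptic genes that rose were Vamp1 (0.79), Synpr (0.52), Syt6 (0.42) and Unc13b (0.21), by log2 fold change. On the postsynaptic side Nrgn, the calmodulin-binding protein neurogranin, averaged 57.7 ± 8.67 TPM in dcKO and 109 ± 11.2 TPM in ff (SD, n = 4 each) and had a log2 fold change of -1.08. The metabotropic receptor gene Grm2 (-0.79), the AMPA receptor partner Cnih3 (-0.63) and the adhesion gene Lrrtm2 (-0.53) also fell. Grm4 (0.67), Neto1 (0.47), Cacng3 (0.40) and Homer3 (0.34) rose. The adjusted p of these 14 genes lay between 2.9e-05 and 0.023 in edgeR with Benjamini-Hochberg adjustment.

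Promoter sequence was read from the RefSeq table of build GRCm38.p6, where 26 of the 38 genes were matched, with 41 promoters among 32851 in all. Promoters of members on a chromosome left out of the search were not counted, while no chromosome was left out of the total. The 250 bases before each start were searched on both strands for TTCAGCACC and GGACAGC, the 2 parts of RE1, the element bound by the repressor REST of neuronal genes, and for TGACGTCA, the cAMP response element. TTCAGCACC was found in 0.301% of all promoters and in those of Syn1 and Nlgn1, GGACAGC in 5.28% of all and in that of Gria2, and TGACGTCA in 1.55% of all and in that of Syn1. The 3 stretches are shown because they held every match among the 26 genes, with the matches in capitals, and all lie on the minus strand: Syn1 at chrX:20920919-20921168, Nlgn1 at chr3:26153987-26154236 before the second start listed for the gene, and Gria2 at chr3:80802836-80803085, where the capitals are the reverse complement of GGACAGC.
Syn1: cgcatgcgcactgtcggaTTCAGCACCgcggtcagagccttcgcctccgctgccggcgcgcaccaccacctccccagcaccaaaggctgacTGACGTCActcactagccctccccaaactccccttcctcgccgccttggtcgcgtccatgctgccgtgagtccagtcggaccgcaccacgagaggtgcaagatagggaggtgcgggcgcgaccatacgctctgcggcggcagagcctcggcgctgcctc
Nlgn1: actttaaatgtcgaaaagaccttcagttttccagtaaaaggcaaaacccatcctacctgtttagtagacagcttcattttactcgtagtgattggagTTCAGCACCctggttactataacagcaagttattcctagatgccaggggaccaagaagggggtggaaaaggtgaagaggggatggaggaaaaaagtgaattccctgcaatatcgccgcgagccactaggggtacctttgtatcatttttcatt
Gria2: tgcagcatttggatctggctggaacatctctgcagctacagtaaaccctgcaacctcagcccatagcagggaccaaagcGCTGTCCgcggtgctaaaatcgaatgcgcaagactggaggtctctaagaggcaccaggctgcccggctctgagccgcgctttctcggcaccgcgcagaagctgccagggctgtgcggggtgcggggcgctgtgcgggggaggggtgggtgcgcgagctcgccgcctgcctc
Syn1 and Nlgn1 fell in dcKO at E18.5 and Gria2 was not called, and the matches are given as a description of these windows. In Syn1 the first base of TTCAGCACC lies 232 bases before the start and that of TGACGTCA 159 bases before it.

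At E12.5 no member was called between dcKO and ff by the same test over 17853 genes, in which 0.190% of all genes were called, 0.0392% higher and 0.151% lower. At an unadjusted p under 0.05 in edgeR there were 3 members (Slc17a7, Cplx2 and Grin1). Over all genes tested the share under that p was larger, at 3433 of 17853. DESeq2 called 2 members lower (Cplx2 and Slc17a7) and limma-voom 1 (Slc17a7). Without dcKO No2 edgeR called 3 lower (Cplx2, Grin2b and Slc17a7). Over all genes DESeq2 called 898 lower and 305 higher of 17853, limma-voom called 149 lower and 56 higher, and edgeR without dcKO No2 called 495 lower and 76 higher of 18298. The authors' deposited table held 2 members lower and none higher with adjusted p below 0.05, and its calls over all genes were not counted. The median log2 fold change was 0.03 for the presynaptic genes, -0.12 for the postsynaptic genes and 0.01 over all genes.

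Slc17a7 came closest. It was at 13.3, 12.8 and 14.3 CPM in dcKO, against 22.5, 24.9 and 19.1 CPM in ff, with every dcKO library below every ff library (log2 fold change -0.72, SE 0.12, adjusted p = 0.052 by edgeR, Benjamini-Hochberg adjusted). At E12.5 the 12 markers of cortical projection neurons were at 418 to 487 TPM in dcKO and 568 to 694 TPM in ff, with 10 of 12 log2 fold changes below zero, a median of -0.55 and 2 called lower. Their part in the Slc17a7 and Cplx2 values was not tested. Cplx2 was at 162, 135 and 137 CPM in dcKO, against 183, 192 and 169 CPM in ff, and its groups were apart too (log2 fold change -0.32, SE 0.09, adjusted p = 0.11 by edgeR, Benjamini-Hochberg adjusted). Grin1 was at 16.7, 15.1 and 15 CPM in dcKO, against 13, 13.6 and 8.18 CPM in ff, with dcKO above ff (log2 fold change 0.45, SE 0.19, adjusted p = 0.24 by edgeR, Benjamini-Hochberg adjusted). Syp was at 108, 109 and 110 CPM in dcKO, against 103, 102 and 85.5 CPM in ff, also with dcKO above ff (log2 fold change 0.18, SE 0.08, adjusted p = 0.28 by edgeR, Benjamini-Hochberg adjusted). In TPM at E12.5 the groups overlapped for Grin1 and for Syp. In CPM at E12.5, 32 of the 38 genes overlapped between the groups, as did 73.2% of all genes tested, of which 0.190% were called. The fold changes of all genes tested fell with transcript length at E12.5 (Spearman's rho -0.41 over 17448 genes, against 0.03 over 17578 genes at E18.5, genes not being independent), and the longest transcript had a median of 4235.5 bases in the presynaptic and 6845.5 bases in the postsynaptic genes. With an offset for length and GC content the postsynaptic median at E12.5 was 0.06 and the presynaptic median 0.02.

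The genotype difference was then compared between the stages in 1 fit of the 4 groups, as the interaction: the dcKO over ff difference at E18.5 minus that at E12.5. It was called below zero for 11 members and above zero for 1 (edgeR with Benjamini-Hochberg adjustment), where 16.5% of 19327 genes were called, 7.12% above and 9.41% below. By sign alone 27 members were below zero and 11 above. Among the presynaptic genes 8 of 20 were called below and 1 above, with a median of -0.40. Among the postsynaptic genes 3 of 18 were called below, with a median of -0.11, and over all genes the median was -0.03. The distance between the class medians was smaller with the offset for length and GC content, as given below.

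Syt4 had the lowest p. At E12.5 it was at 103, 98.8 and 95.3 CPM in dcKO, against 93.2, 109 and 75 CPM in ff, groups that overlap, and the interaction was -0.87 (SE 0.15, adjusted p = 0.0015 in edgeR). Snap25 was at 55.5, 52.2 and 52.4 CPM in dcKO, against 49.6, 50.7 and 45.4 CPM in ff at E12.5, with dcKO above ff in CPM, and its interaction was -0.53 (SE 0.09, adjusted p = 0.0016 in edgeR). In TPM at E12.5 the Snap25 groups overlapped, with means of 55.8 TPM in dcKO and 56.6 TPM in ff. Camk2b was at 45.7, 41.7 and 38.8 CPM in dcKO, against 40.5, 49.7 and 32.2 CPM in ff at E12.5, with overlap, and its interaction was -0.78 (SE 0.16, adjusted p = 0.006 in edgeR). Syp had an interaction of -0.45 (SE 0.10, adjusted p = 0.0062 in edgeR), with dcKO above ff at E12.5 and below at E18.5 in CPM, while in TPM its groups overlapped at both stages. Sv2b averaged 15.8 ± 1.39 CPM in dcKO and 17.5 ± 2.42 CPM in ff at E12.5 (SD, n = 3 each). Rab3a averaged 108 ± 2.87 CPM in dcKO and 102 ± 11.9 CPM in ff, and Cplx1 24.4 ± 1.52 CPM in dcKO and 24 ± 3.68 CPM in ff (SD, n = 3 each). The interactions of Sv2b, Rab3a, Cplx1 and Grin1 were -0.62, -0.51, -0.67 and -0.67, with adjusted p from 0.0085 to 0.022 in edgeR. The Grin1 groups overlapped in TPM at both stages. Stx1a (-0.56), Dlg2 (-0.42) and Vamp2 (-0.40) were also below zero, and Nrxn3 was above (0.54, SE 0.16, adjusted p = 0.03 in edgeR).

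The number of interaction calls moved with the processing. With the length and GC offset 18 members were called below zero and none above, and over all 19327 genes 2069 were called below and 1271 above. With that offset the medians were -0.39 for the presynaptic and -0.33 for the postsynaptic genes, closer together than without it. On log2(TPM + 1) the median over all genes was 0.12 and 81.6% of all calls were above zero, against 43.1% in counts. On that scale 2 members (Syt4 and Dlg2) were called below zero and Nrxn3 was called above. In counts, the Nrxn3 call was lost in 8 of the 14 fits that left out 1 library. Without E12.5 ff No7, and likewise without E12.5 dcKO No2, 7 members were called below zero. Over all genes 1677 of 20235 were called below without E12.5 ff No7 and 1455 of 20194 without E12.5 dcKO No2.

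Across the stages the synaptic genes rose together. Of the 38, 37 were higher and 1 lower at E18.5 than at E12.5, in dcKO and again in ff (edgeR with Benjamini-Hochberg adjustment). The background was 62.2% of 19327 genes called in dcKO, 30.9% higher and 31.3% lower, and 61.4% in ff, 31.5% higher and 29.9% lower. The median log2 fold change was 1.34 for the presynaptic and 1.61 for the postsynaptic genes in dcKO, and 1.62 for the presynaptic and 1.73 for the postsynaptic genes in ff, against 0.01 and 0 over all genes. On log2(TPM + 1) the median over all genes in dcKO was 0.16 and 65.7% of calls were higher, against 49.6% in counts, and the 38 genes were called as in counts. Between the same stages 10 of 10 proliferation markers fell, with a median of -1.81 in dcKO and -2.51 in ff, and 10 of 12 radial glia markers fell and 2 rose in each, with a median of -1.30 in dcKO and -1.89 in ff. All 7 markers of thalamus and diencephalon fell, with a median of -4.48 in dcKO and -4.72 in ff, and all 5 astrocyte markers rose, with a median of 2.47 in dcKO and 2.88 in ff. Of 12 pan-neuronal markers 7 rose and 2 fell in dcKO, with a median of 0.65, and 10 rose and 1 fell in ff, with a median of 0.84. Of 12 markers of cortical projection neurons 10 rose and 2 fell in dcKO, with a median of 1.26, and 11 rose and 1 fell in ff, with a median of 1. The part of all these markers in the synaptic increases was not tested. Stage and dissected tissue changed together here and cannot be told apart.

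**Figure D4:**
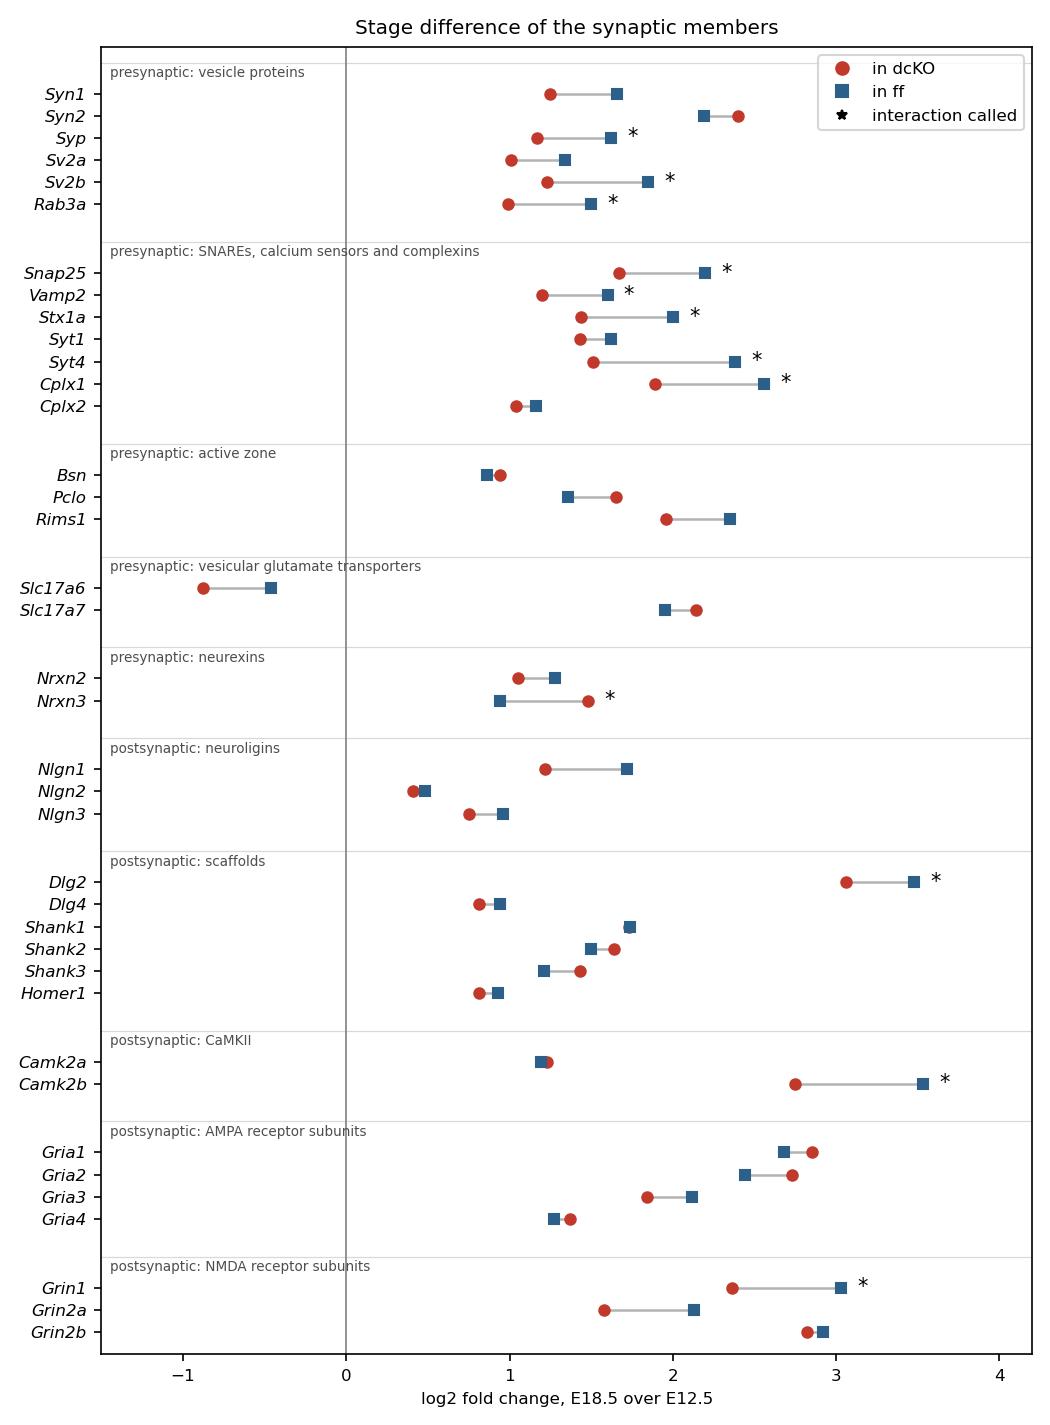
Log2 fold change of E18.5 over E12.5 for the 38 genes in dcKO (circles) and ff (squares), joined by a line, with a star where the genotype by stage interaction was called. Slc17a6 alone lies below zero, and in 11 of the 12 starred genes the dcKO circle lies left of the ff square.

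The exception was Slc17a6, which fell by 0.88 in dcKO (SE 0.11) and by 0.46 in ff (SE 0.11) on the log2 scale, while Slc17a7 had log2 fold changes of 2.14 in dcKO and 1.95 in ff. In dcKO the largest increases were those of Dlg2 (3.06, SE 0.11), Gria1 (2.85, SE 0.12), Grin2b (2.82, SE 0.24), Camk2b (2.75, SE 0.13) and Gria2 (2.73, SE 0.16), which in ff were 3.48, 2.68, 2.92, 3.53 and 2.44. The smallest increases in dcKO were those of Nlgn2 (0.41, SE 0.08), Nlgn3 (0.75, SE 0.11), Dlg4 (0.81, SE 0.07) and Homer1 (0.81, SE 0.09), which in ff were 0.48, 0.96, 0.94 and 0.93. Among these 10 genes the largest adjusted p in edgeR was 2e-04 in dcKO and 0.0023 in ff.

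Levels per transcript length are given as mean TPM over the libraries of a group. Rab3a averaged 351 and 420 TPM in dcKO and ff at E18.5, and 152 and 149 TPM in dcKO and ff at E12.5. Syp averaged 206 and 222 TPM in dcKO and ff at E18.5, and 80.6 and 71.3 TPM in dcKO and ff at E12.5. Syn1 averaged 83.8 and 99.5 TPM in dcKO and ff at E18.5, and 30.4 and 30.7 TPM in dcKO and ff at E12.5. These vesicle genes were already abundant at E12.5. Sv2a averaged 90.7 and 90.8 TPM in dcKO and ff at E18.5, and 37.9 and 35.2 TPM in dcKO and ff at E12.5. Syn2 averaged 62.6 and 57.9 TPM in dcKO and ff at E18.5, and 11.1 and 13.4 TPM in dcKO and ff at E12.5. Sv2b averaged 13.7 and 20.3 TPM in dcKO and ff at E18.5, and 5.1 and 5.9 TPM in dcKO and ff at E12.5. Syn2 had the largest stage increase of the vesicle genes, with log2 fold changes of 2.40 in dcKO and 2.19 in ff.

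Among the fusion genes Vamp2 was the most abundant. Vamp2 averaged 344 and 371 TPM in dcKO and ff at E18.5, and at E12.5 averaged 129 TPM in dcKO and ran from 108 to 155 TPM in ff. Snap25 averaged 214 and 251 TPM in dcKO and ff at E18.5, and 55.8 and 56.6 TPM in dcKO and ff at E12.5. Syt4 averaged 149 and 226 TPM in dcKO and ff at E18.5, and 44.9 and 42.9 TPM in dcKO and ff at E12.5. Vamp2 led Snap25 and Syt4 in all 4 groups. Cplx2 averaged 122 and 149 TPM in dcKO and ff at E18.5, and 51.3 and 65.6 TPM in dcKO and ff at E12.5. Syt1 averaged 110 and 116 TPM in dcKO and ff at E18.5, and 35.3 and 37.3 TPM in dcKO and ff at E12.5. Stx1a averaged 97.8 and 107 TPM in dcKO and ff at E18.5, and 29.9 and 26.9 TPM in dcKO and ff at E12.5. Cplx1 averaged 87 and 120 TPM in dcKO and ff at E18.5, and 20.4 and 20.6 TPM in dcKO and ff at E12.5 and had the largest stage increase of these 7 genes, 1.89 in dcKO and 2.56 in ff on the log2 scale.

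The long active zone transcripts were low per length. Bsn averaged 16.7 and 19.6 TPM in dcKO and ff at E18.5, and 7.92 and 10.2 TPM in dcKO and ff at E12.5. Pclo averaged 13.3 and 13.4 TPM in dcKO and ff at E18.5, and 4.17 and 4.68 TPM in dcKO and ff at E12.5. Rims1 averaged 17.9 and 20 TPM in dcKO and ff at E18.5, and 4.1 and 3.66 TPM in dcKO and ff at E12.5. The transporters changed places between the stages, with Slc17a6 above Slc17a7 at E12.5 and below it at E18.5. Slc17a7 averaged 42.5 and 55.4 TPM in dcKO and ff at E18.5, and 8.46 and 14.7 TPM in dcKO and ff at E12.5. Slc17a6 averaged 19.3 and 22.7 TPM in dcKO and ff at E18.5, and 31.1 and 31.2 TPM in dcKO and ff at E12.5. Nrxn2 was the more abundant of the 2 neurexins in all 4 groups. Nrxn2 averaged 210 and 214 TPM in dcKO and ff at E18.5, and 94.2 and 88.7 TPM in dcKO and ff at E12.5. Nrxn3 averaged 36.2 and 22.4 TPM in dcKO and ff at E18.5, and 11.8 and 12.8 TPM in dcKO and ff at E12.5.

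On the postsynaptic side Nlgn2 led the neuroligins in all 4 groups. Nlgn2 averaged 113 and 116 TPM in dcKO and ff at E18.5, and 72 and 80.4 TPM in dcKO and ff at E12.5. Nlgn3 averaged 29.1 and 34.1 TPM in dcKO and ff at E18.5, and 17.2 and 21.3 TPM in dcKO and ff at E12.5. Nlgn1 averaged 18.4 and 28.1 TPM in dcKO and ff at E18.5, and 7.04 and 8.96 TPM in dcKO and ff at E12.5. Dlg4 was the most abundant scaffold transcript. Dlg4 averaged 238 and 233 TPM in dcKO and ff at E18.5, and 127 and 131 TPM in dcKO and ff at E12.5. Dlg2 averaged 69.7 and 88.7 TPM in dcKO and ff at E18.5, and 9.6 and 7.72 TPM in dcKO and ff at E12.5. Homer1 averaged 43 and 46.9 TPM in dcKO and ff at E18.5, and 20.8 and 25.5 TPM in dcKO and ff at E12.5. Shank1, among the 3 Shank genes, was the most abundant in all 4 groups. Shank1 averaged 54 and 53.8 TPM in dcKO and ff at E18.5, and 14.7 and 17.5 TPM in dcKO and ff at E12.5. Shank3 averaged 36.5 and 30.2 TPM in dcKO and ff at E18.5, and 12.9 and 13.4 TPM in dcKO and ff at E12.5. Shank2 averaged 22.4 and 22 TPM in dcKO and ff at E18.5, and 6.23 and 7.91 TPM in dcKO and ff at E12.5.

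Camk2b exceeded Camk2a in all 4 groups, and by more at E18.5. Camk2b averaged 178 and 265 TPM in dcKO and ff at E18.5, and 22.8 and 24.2 TPM in dcKO and ff at E12.5. Camk2a averaged 42.9 and 36 TPM in dcKO and ff at E18.5, and 16.3 and 16.8 TPM in dcKO and ff at E12.5. Gria2 was the leading AMPA receptor transcript in all 4 groups. Gria2 averaged 142 and 108 TPM in dcKO and ff at E18.5, and 18 and 20.7 TPM in dcKO and ff at E12.5. Gria1 averaged 97.9 and 71.5 TPM in dcKO and ff at E18.5, and 12.2 and 11.3 TPM in dcKO and ff at E12.5. Gria4 averaged 32 and 28.3 TPM in dcKO and ff at E18.5, and 10.4 and 11.8 TPM in dcKO and ff at E12.5. Gria3 was the lowest of the 4 AMPA receptor transcripts in every group. Gria3 averaged 17.9 and 22.8 TPM in dcKO and ff at E18.5, and 4.26 and 5.12 TPM in dcKO and ff at E12.5. Of the NMDA receptor subunits Grin1 was the most abundant. Grin1 averaged 41.1 and 42.6 TPM in dcKO and ff at E18.5, and 6.93 and 5.81 TPM in dcKO and ff at E12.5. Grin2b averaged 15.2 and 19.5 TPM in dcKO and ff at E18.5, and 1.86 and 2.54 TPM in dcKO and ff at E12.5. Grin2a averaged 0.772 and 0.883 TPM in dcKO and ff at E18.5, and 0.24 and 0.24 TPM in dcKO and ff at E12.5, the lowest of the 38 in every group.

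Ratios between related genes were formed in each library as log2 ratios of TPM + 1, with no test. Camk2a over Camk2b at E18.5 was -2.05, -2.02, -2.04 and -2 in dcKO, against -2.86, -2.84, -2.96 and -2.73 in ff. The dcKO libraries were nearly equal and stood apart from ff, whereas at E12.5 the mean was -0.46 in dcKO and -0.47 in ff. Syt1 over Syt4 at E18.5 was -0.55, -0.36, -0.48 and -0.36 in dcKO, against -1.01, -0.96, -0.92 and -0.9 in ff. It too was apart at E18.5 and overlapped at E12.5, at -0.45 to -0.16 in dcKO and -0.37 to -0.08 in ff.

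Dlg4 over Dlg2 at E18.5 was 1.63 to 1.86 in dcKO and 1.34 to 1.48 in ff. At E12.5 the order in TPM was the opposite, at 3.56 to 3.68 in dcKO and 3.78 to 4.03 in ff, and neither stage showed overlap. In counts at E12.5 neither gene was called, with log2 fold changes of -0.03 for Dlg4 and -0.07 for Dlg2, so the opposite order rests on TPM. Syn1 over Syn2 at E18.5 was 0.34 to 0.47 in dcKO and 0.63 to 0.85 in ff, with no overlap, and at E12.5 it was 1.34 to 1.44 in dcKO and 0.9 to 1.37 in ff, which overlap. Slc17a7 over Slc17a6 at E12.5 was -1.94, -1.77 and -1.56 in dcKO, against -0.94, -1.05 and -1.14 in ff. These were apart, while at E18.5 it was 0.78 to 1.52 in dcKO and 1.04 to 1.45 in ff, which overlap. Cplx1 over Cplx2 averaged -0.49 in dcKO and -0.31 in ff at E18.5 with overlap, and at E12.5 it was -1.35 to -1.24 in dcKO and -1.79 to -1.49 in ff, without overlap. Gria1 over Gria2 at E18.5 averaged -0.53 in dcKO and -0.57 in ff, and Grin2a over Grin2b averaged -3.19 in dcKO and -3.44 in ff, both with overlap. With 0.1 TPM added in place of 1 TPM the Grin2a over Grin2b means were -4.14 in dcKO and -4.31 in ff, so this value depends on the amount added.

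**Figure D5:**
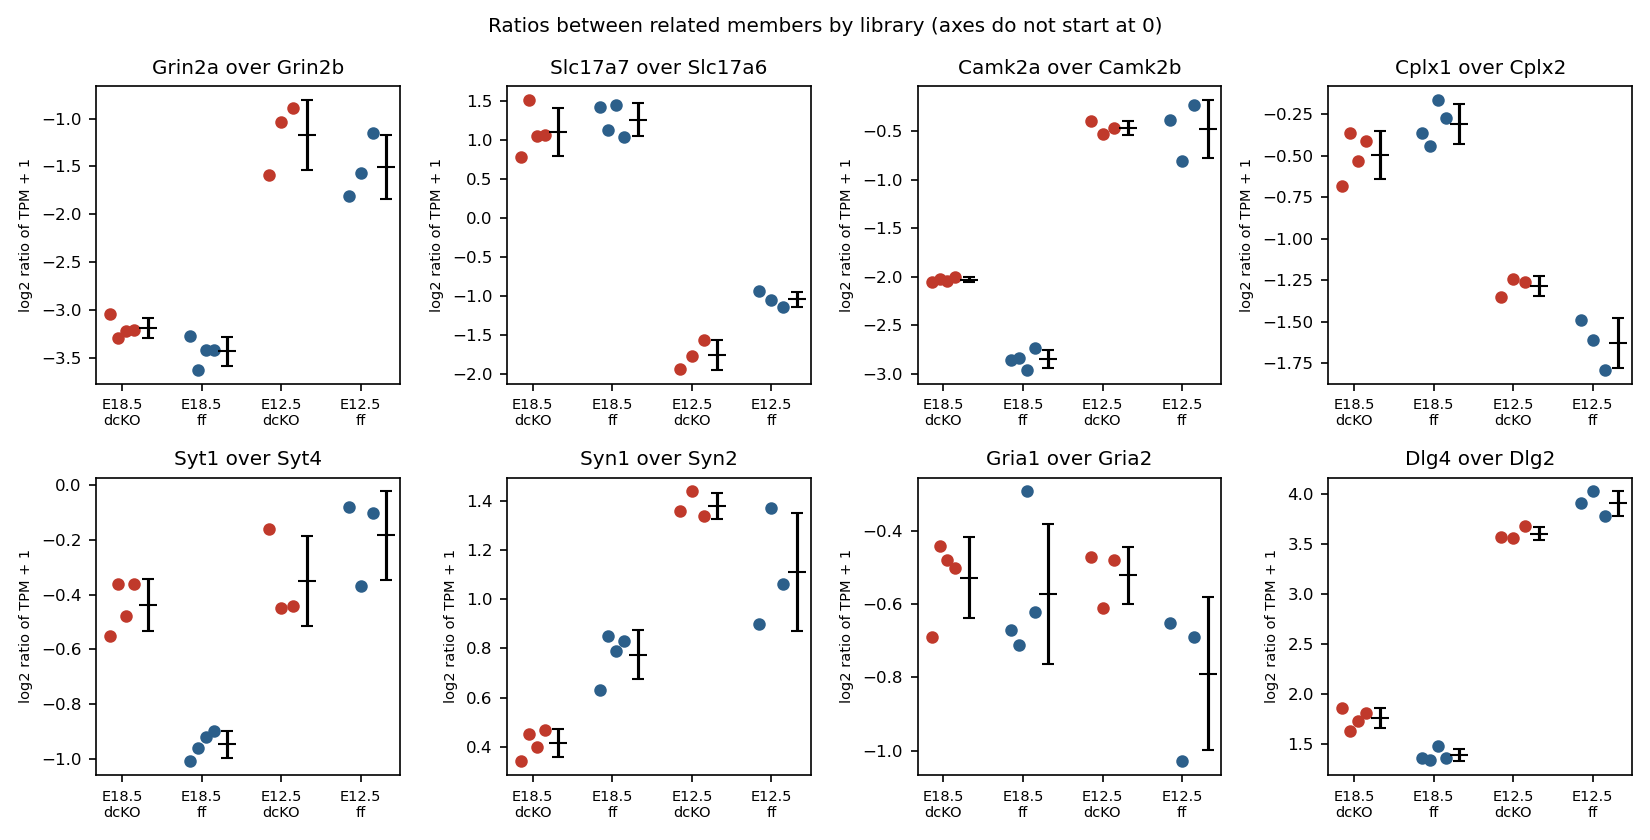
Log2 ratio of TPM + 1 between 8 pairs of related synaptic genes in each library of the 4 groups, with the mean and SD beside the points. Camk2a over Camk2b at E18.5 lies at -2.05 to -2 in dcKO and -2.96 to -2.73 in ff.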

How the data were processed

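RNA was sequenced from 14 libraries, in 4 groups of 4 (E18.5) or 3 (E12.5) per genotype. Per the labels' protocols, total RNA was made into libraries with a stranded mRNA kit, and the submitters' processing notes name Trim Galore, STAR, RSEM and DESeq2, while the genome build and whether counting used strand are not given in the sources used here. The authors deposited RSEM expected counts, which are not all whole and were rounded, and TPM, used as deposited for levels across genes and stages. The authors' deposited DESeq2 tables, with log2 fold changes and p-values, were used for counts of calls and for gene symbols. In 11 of 14 samples the description names a library of another group, so columns were matched to groups by the number and genotype in the titles. The labels do not say that libraries came from separate animals, and p-values measure only the spread between these libraries, which chi-square checks found to exceed sampling noise.

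Tests used R 4.3.3 and edgeR 4.0.16 (filterByExpr, TMM, robust quasi-likelihood F test, Benjamini-Hochberg adjustment over all genes, threshold 0.05), with SE taken as the absolute log2 fold change over the square root of F. Each stage had its own fit for genotype, and 1 fit of the 4 groups gave stage and interaction. The procedure was tested on simulated data. The 38 genes and all lists were chosen with earlier results of these data known. Statistics are given at E18.5 for members called with an absolute log2 fold change of at least 0.5 and the lowest p in each role group, at E12.5 for the 4 lowest p, in the interaction for up to 8, and for stage for the 5 largest and 5 smallest changes in dcKO. Of the further synaptic genes up to 4 per list and direction with the lowest p are named, except some that are not reported here. Alternatives were DESeq2 1.42.0, limma 3.58.1 (voom, and limma-trend on log2(TPM + 1) or log2(TPM + 0.1)), other scalings and filters, sex, depth, a length and GC offset, leaving out each library, and, chosen after seeing the data, TPM rescaled by TMM factors.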

Additional observations from a re-analysis of the deposited data

Results flagged for a closer look

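Within groups of 4 libraries at E18.5, 1 library stood apart from the other 3 in 7 cases by Dixon's test, which chance gives in about 1 of 20 groups, and 38 members were looked at in each of the 2 genotypes. Bsn was at 142 CPM in ff No8, against 118 to 121 CPM in the other ff libraries. Nrxn3 was at 83 CPM in the same library, against 71.4 to 73 CPM. In ff No18 Sv2b was at 52.8 CPM, against 61.5 to 62.3 CPM, and Syt1 was at 275 CPM, against 302 to 307 CPM. Cplx1 was at 72.8 CPM in the shallow dcKO No2, against 94.8 to 97.7 CPM in the other dcKO libraries. Nlgn2 was at 251 CPM in dcKO No3, against 274 to 278 CPM, and Rims1 was at 56.1 CPM in dcKO No12, against 48.7 to 49.6 CPM.

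The genotype difference itself differed between the stages for 12 members (interaction term, edgeR with Benjamini-Hochberg adjustment). On the log2 scale the difference was -0.87 for Syt4, -0.78 for Camk2b, -0.67 for Cplx1 and -0.67 for Grin1. It was -0.62 for Sv2b, -0.56 for Stx1a, -0.53 for Snap25 and -0.51 for Rab3a. For Syp it was -0.45, for Dlg2 -0.42 and for Vamp2 -0.40, and for Nrxn3 0.54.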

How the results depend on the processing

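The log2 fold changes of members named by the rule kept their sign under the alternatives. The order of the group means in TPM was the reverse of that in counts for uncalled members outside those comparisons, among them Dlg4 at E18.5 (-0.11 in counts, 238 TPM in dcKO and 233 TPM in ff) and Dlg2 at E12.5 (-0.07 in counts, 9.6 TPM in dcKO and 7.72 TPM in ff, without overlap). Class medians near zero changed sign: at E12.5 the presynaptic median was -0.09 with sex as a covariate and -0.08 to 0.12 when 1 library was left out, and the postsynaptic median was 0.06 with the length and GC offset and -0.26 to 0.03 when 1 library was left out. The postsynaptic median also changed sign in the interaction on both TPM scales (0.10 and 0.13). At E12.5 members lower in dcKO numbered 2 by DESeq2 and 1 by limma-voom, without the filter on low counts, in 1 fit of all libraries and with the length and GC offset, and 0 to 3 when 1 library was left out, with 3 (Cplx2, Grin2b and Slc17a7) without dcKO No2. Over all genes 201 of 28458 were lower without the filter, 734 of 19327 in 1 fit of all libraries and 164 of 17853 with the offset. When 1 library was left out, 0 to 495 of all genes were lower, with 495 without dcKO No2. At E18.5, 4 were higher with upper quartile scaling and 2 to 4 when 1 library was left out, with 4 without dcKO No3. Lower calls ran from 20 to 29. Over all genes, the fits that left out 1 library had 2358 (without dcKO No13) to 3153 (without ff No18) lower. Those fits had 1910 (without ff No17) to 2817 (without dcKO No2) higher. With upper quartile scaling 3204 of all 17974 genes were higher and 2492 lower. On log2(TPM + 1) and on log2(TPM + 0.1), 5 were higher and 13 lower, with presynaptic medians of -0.19 and -0.20 and a postsynaptic median of -0.05 in both. Over all 17974 genes 3692 and 3726 were higher and 1120 and 1112 lower on these scales. The cause of these differences was not tested, beyond the return to 24 lower and 2 higher once TPM were rescaled.

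For stage in dcKO the presynaptic median was 1.55 on log2(TPM + 0.1), and the postsynaptic median ran from 1.47 to 1.81 when 1 library was left out. In ff the postsynaptic median was 1.48 on log2(TPM + 1) and 1.48 after rescaling. In the interaction 2 members were called below zero on either TPM scale, 7 with counts thinned to the shallowest library and 18 with the length and GC offset, and 7 to 15 when 1 library was left out. After thinning, 850 of all 14563 genes were called below and 1048 above. When 1 library was left out, 1016 to 1957 of all genes were called below and 674 to 1402 above. Of 19327 genes, 448 were called below on log2(TPM + 1) and 417 on log2(TPM + 0.1). Without both shallow libraries 1510 of 19544 genes were called above. No member was called above zero after thinning, without both shallow libraries or with the offset (0), and 0 to 1 when 1 library was left out. The presynaptic median was -0.20 on both TPM scales, and the postsynaptic median was 0.13 on log2(TPM + 0.1) and -0.33 with the offset. The class means of dcKO minus ff at E18.5 were -0.17 (presynaptic) and -0.06 (postsynaptic) on log2(TPM + 1), and -0.28 and -0.20 on log2(CPM + 1). Values of single named members lost their call in 64 cases at E18.5 and kept it in 557, and lost it in 75 and kept it in 261 in the interaction, while at E12.5 a call was gained in 8 cases and not in 76, and for stage every call was kept.

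No paired analysis was possible because the groups compared share fewer than 2 replicate numbers. Depth limits Grin2a in E12.5 ff No9, with 4 expected counts, and in E18.5 dcKO No2, with 36.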
